A study of Mus musculus with 11 samples.

Results

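The mouse mitochondrial genome carries 37 genes, and all 37 were found among the 58223 entries of each count table (56980 genes and 1243 repeat subfamilies). Members were every entry whose Ensembl gene ID maps to a mouse symbol beginning with mt-. They comprise 13 protein genes, 2 rRNA genes (mt-Rnr1 and mt-Rnr2) and 22 tRNA genes. Of these, 34 passed the filter on low counts in the fits below: the 13 protein genes, both rRNAs and 19 tRNAs. The other 3, mt-Tf, mt-Tv and mt-Td, had between 0 and 11 counts in any library and were not tested.

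The series profiled RNA of primary lung fibroblasts from mice by ribodepleted RNA sequencing. There were 6 cGAS KO samples (3 male and 3 female) and 5 WT samples (3 male and 2 female), each with 1 library. Cgas encodes cGAS, a sensor of cytosolic DNA. Cells of all groups were grown in humidified incubators with 5% O2 and 5% CO2 at 37 °C in a DMEM/F12 medium with 15% serum. The labels give no strain, age or passage number and do not say how the KO allele was made, and their extraction text speaks of pulverized tissue although the samples are labelled as cells. No label states that each numbered sample is a separate mouse culture, so p-values measure the spread between these samples.

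Mitochondrial DNA is a small circle that is transcribed from both strands into long precursors, which are cut at the tRNAs to release the rRNAs and mRNAs. The heavy strand gives the template for nearly all of the mRNAs and both rRNAs, while the light strand gives mt-Nd6 and a minority of the tRNAs. All 13 proteins are subunits of the respiratory chain or of ATP synthase and work together with subunits made from nuclear genes. Mitochondrial DNA that leaks into the cytosol is among the known ligands of cGAS.

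Several members have near-identical copies in the nuclear genome, and the printed windows show how little separates a transcript from its copy. BLAST against the GENCODE vM21 transcripts (GRCm38) found 7 annotated copies at 99% identity or more over at least 200 bases, all on chromosome 1. The copies of mt-Co2 (Gm28661), mt-Atp6 (Gm10925), mt-Co3 (Gm28437), mt-Nd4l (Gm10222) and mt-Nd4 (Gm28439) matched at 100%, the last of these over 63.6% of the gene. Gm28438 differs from mt-Nd3 by T3C alone, and Gm29216, which covers 31.3% of mt-Co1, differs from it by A1066T alone, with the mitochondrial base first and positions counted from the start of the mitochondrial gene. These windows are DNA letters of the GENCODE transcripts, 5′ to 3′, with the base that differs in capitals.
mt-Co1: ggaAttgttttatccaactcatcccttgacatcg
Gm29216: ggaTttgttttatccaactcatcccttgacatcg
mt-Nd3: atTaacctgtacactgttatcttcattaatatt
Gm28438: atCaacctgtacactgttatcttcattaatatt

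The copies bear on every value below in which a paired gene appears. Of all 100-base windows, 99.5% in mt-Co2 and mt-Atp6 and 99.9% in mt-Co3 were also present in another annotated transcript, and the share was 98.5% in mt-Nd4l, 97.6% in mt-Nd3, 60.8% in mt-Nd4, 30.8% in mt-Co1 and 3.19% in mt-Nd2. No 100-base window of mt-Rnr1, mt-Rnr2, mt-Nd1, mt-Atp8, mt-Nd5, mt-Nd6 or mt-Cytb was shared with another annotated transcript. Nuclear sequence outside annotated transcripts was not searched, and the tRNAs, being shorter than 100 bases, were not checked. How the authors' counting split such reads is not given in the sources used here.

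A second set of sequences is shown because these 6 tRNA genes were called lower in male than in female libraries, with 3 protein genes, as described further on. Each is the whole gene in DNA letters from GENCODE vM21, 5′ to 3′, with the anticodon in capitals.
mt-Th: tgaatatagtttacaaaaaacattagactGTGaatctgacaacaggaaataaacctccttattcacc
mt-Ts2: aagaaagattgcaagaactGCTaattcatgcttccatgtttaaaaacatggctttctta
mt-Tl2: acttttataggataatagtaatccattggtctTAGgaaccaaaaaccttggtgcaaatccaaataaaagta
mt-Tr: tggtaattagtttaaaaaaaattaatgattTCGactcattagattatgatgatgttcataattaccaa
mt-Tg: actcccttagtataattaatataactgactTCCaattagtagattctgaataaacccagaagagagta
mt-Ti: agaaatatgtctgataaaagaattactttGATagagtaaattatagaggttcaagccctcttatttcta
They decode histidine (mt-Th), serine (mt-Ts2), leucine (mt-Tl2), arginine (mt-Tr), glycine (mt-Tg) and isoleucine (mt-Ti). In the annotated gene order, mt-Th, mt-Ts2 and mt-Tl2 lie side by side between mt-Nd4 and mt-Nd5, mt-Tr lies between mt-Nd3 and mt-Nd4l, mt-Tg between mt-Co3 and mt-Nd3, and mt-Ti directly follows mt-Nd1.

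Libraries held between 27261958 and 48039328 counts. Cgas had 52 to 111 counts in KO libraries, against 222 to 403 counts in WT libraries, and averaged 2.07 ± 0.252 CPM (counts scaled to library size, with TMM factors) in KO and 8.26 ± 1.76 CPM in WT (SD, n = 6 and 5; log2 fold change -1.99, SE 0.16, adjusted p = 0.00102 by edgeR's quasi-likelihood test). Fibroblast markers were abundant, Col1a1 averaging 13542 ± 2141 CPM in KO and 15754 ± 2054 CPM in WT. Macrophage genes were present as well: the 12 leukocyte and macrophage markers summed to 6390 to 10997 CPM in KO and 4594 to 6650 CPM in WT libraries, while Cd3e and Ncr1, which mark T cells and natural killer cells, had at most 1 count in any library. The 10 epithelial markers summed to 10.3 to 35.8 CPM in KO and 22 to 53.2 CPM in WT. Male and female libraries carry differently styled names, so sex and library set cannot be told apart.

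Mitochondrial transcripts took a small part of each library. The 37 members together made up 0.781%, 0.726% and 0.763% of all counts in the KO male libraries and 0.942%, 0.874% and 0.779% in the WT male libraries. In females the share was 0.946%, 0.961% and 1.04% in KO and 0.981% and 1.33% in WT. KO and WT libraries overlapped in both sexes. Over both sexes the share averaged 0.87% ± 0.129 in KO and 0.98% ± 0.208 in WT (SD, n = 6 and 5). The difference of -0.111 percentage points is smaller than either SD, but these SDs include the spread between the sexes. Within males the share averaged 0.757% ± 0.028 in KO and 0.865% ± 0.0817 in WT (SD, n = 3 and 3). Within females it averaged 0.983% ± 0.051 in KO and 1.15% ± 0.245 in WT (SD, n = 3 and 2). The next difference is larger: the share averaged 0.811% ± 0.0806 in males and 1.05% ± 0.158 in females (SD, n = 6 and 5), and every male library lay below every female library. As the share is a sum over the members it was given no p-value. In bulk RNA, fewer cells of a type and less of these transcripts per cell cannot be told apart.

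**Figure D1:**
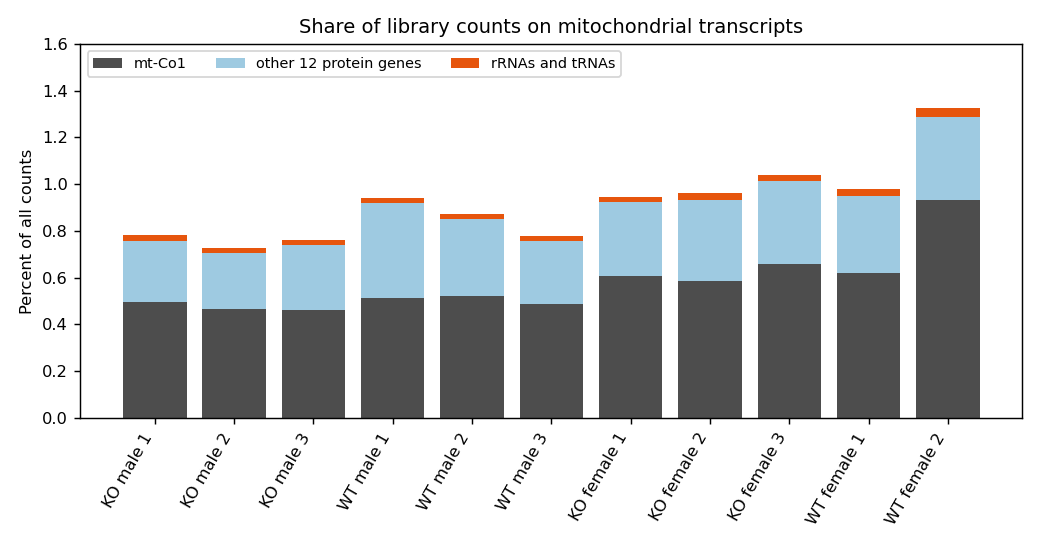
Share of each library's counts on the mitochondrial transcripts, in percent of all counts, with 1 stacked bar per library: mt-Co1 at the bottom, the other protein genes above it, rRNAs and tRNAs at the top. The 6 male bars lie between 0.726% and 0.942%, the 5 female bars between 0.946% and 1.33%, and WT female 2 is the tallest.

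A single mRNA dominated. Counts of mt-Co1, the catalytic core subunit of cytochrome c oxidase, were 60.4% to 64.3% of all member counts in KO libraries and 54.5% to 70.4% in WT libraries. The lowest and the highest of these were WT libraries, male 1 at 54.5% and female 2 at 70.4%. Per length of gene, mt-Co1 averaged 3753 CPM per kb over the 11 libraries. The next protein genes on the same scale were mt-Co3 at 548, mt-Nd1 at 510, mt-Cytb at 455, mt-Co2 at 367 and mt-Nd5 at 310 CPM per kb, and the lowest was mt-Nd4l at 37.5 CPM per kb. Genes with shared windows are uncertain on this scale, since adding the copy's counts would raise them.

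The rRNAs, which in cells are far more abundant than any mitochondrial mRNA, stood low in these ribodepleted libraries: mt-Rnr1, the small-subunit rRNA, averaged 86.1 CPM per kb and mt-Rnr2, the large-subunit rRNA, 35.7 CPM per kb. Both together took 1.19% to 1.71% of member counts in KO and 1.13% to 2.03% in WT libraries. How much of them the depletion removed was not tested. The 22 tRNAs took 1.2% to 1.43% of member counts in KO and 0.991% to 1.33% in WT, ranging from mt-Tv at a mean of 0.047 CPM to mt-Tp, the proline tRNA, at 24.1 CPM. After mt-Tp came mt-Tn (asparagine) with a mean of 16.8 CPM and mt-Tc (cysteine) with 15.5 CPM. Whether tRNA counts are mature tRNA or pieces of the precursor was not tested.

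**Figure D2:**
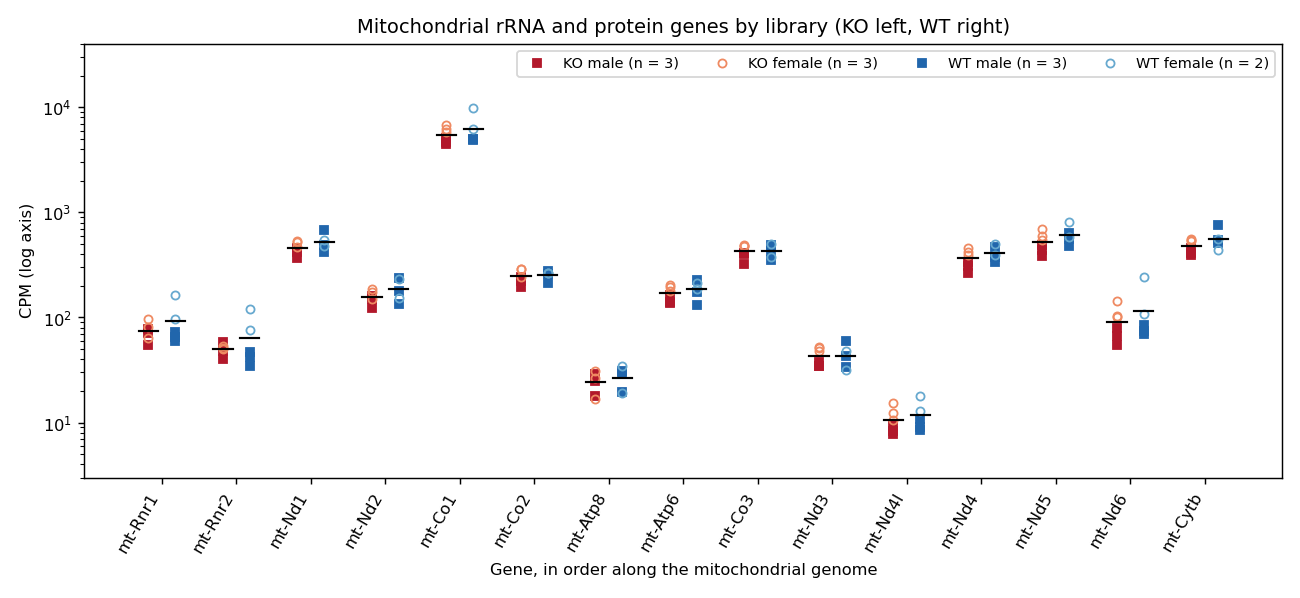
Levels of the 2 rRNAs and 13 protein genes in CPM on a log axis, in order along the mitochondrial genome; each point is a library, KO left and WT right of each tick, squares male and circles female, black lines group means. KO and WT points overlap for every gene, and mt-Co1 stands above all others.

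The comparison of KO with WT asks whether loss of the DNA sensor goes with another level of mitochondrial RNA. Over both sexes none of the 34 tested members passed an adjusted p of 0.05 by edgeR's quasi-likelihood test with sex as a covariate, where 1 of all 22298 entries tested (0.00448%), Cgas itself, did. DESeq2 also called 0 members, and limma-voom with sample weights called 2 of 34 (mt-Nd5 and mt-Cytb, both lower in KO), where it called 14.6% of all entries, 4.53% being lower in KO. At an unadjusted p under 0.05, edgeR had 4 of 34 members, all lower in KO (mt-Th, mt-Tl2, mt-Ti and mt-Nd5), against 17.2% of all entries in either direction and 7.09% lower in KO. The lowest adjusted p among members by edgeR was 0.235 (mt-Th).

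The fitted differences were small and mostly of 1 sign. Of 34 members, 28 had a log2 fold change below 0, against 52.5% of all entries, and the median was -0.215, against -0.0153 for all entries. All 13 protein genes and both rRNAs were below 0. Members share precursors and libraries and so do not count as separate observations of this sign. No member had KO libraries that all lay on one side of the WT libraries (0 of 34), which held for 0.426% of all entries with KO lower and 0.789% with KO higher.

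By complex, the mitochondrial subunits of complex I, the complex that takes electrons from NADH, gave log2 fold changes of -0.21 for mt-Nd1, -0.27 for mt-Nd2, -0.05 for mt-Nd3, -0.21 for mt-Nd4l, -0.24 for mt-Nd4, -0.27 for mt-Nd5 and -0.37 for mt-Nd6. The lowest unadjusted p of a protein gene belonged to mt-Nd5, a proton-pumping subunit of the membrane arm. It had a lowest, median and highest level of 388, 521 and 689 CPM in KO, against 582, 812, 638, 554 and 480 CPM in WT libraries. Most KO libraries lay within the WT range, and the change of -0.27 (SE 0.12) had an unadjusted p of 0.0415 and an adjusted p of 0.272 by edgeR.

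For complex III, mt-Cytb, which encodes cytochrome b, gave -0.24 (SE 0.15; adjusted p = 0.426 by edgeR). In complex IV, mt-Co1 had a lowest, median and highest level of 4498, 5432 and 6712 CPM in KO, against 6222, 9822, 4999, 5005 and 4849 CPM in WT, and a fold change of -0.20 on the log2 scale (SE 0.13; adjusted p = 0.437 by edgeR). The groups overlapped, with WT female 2 far above all other libraries. The log2 fold change was -0.08 for mt-Co2, -0.03 for mt-Co3, -0.18 for mt-Atp6 and -0.14 for mt-Atp8, and mt-Co3 turned to 0.04 when the counts of its nuclear copy were added. The rRNAs gave -0.29 (mt-Rnr1) and -0.28 (mt-Rnr2), and mt-Rnr2 turned to 0.15 in limma-voom.

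Among the 19 tested tRNAs, 13 were below 0, from -0.54 (mt-Th) to 0.09 (mt-Tc). mt-Th had a lowest, median and highest level of 0.393, 0.823 and 1.2 CPM in KO, against 1.11, 2.56, 0.582, 0.595 and 0.66 CPM in WT libraries. In both genotypes the highest values were those of female libraries. Its fold change of -0.54 on the log2 scale (SE 0.21) had an adjusted p of 0.235 by edgeR, and without WT female 1 it passed, at -0.70 with an adjusted p of 0.0449. How many of all entries passed without WT female 1 in this contrast is not given here. The 3 most abundant tRNAs lay near 0: mt-Tp gave 0.04, mt-Tn 0.05 and mt-Tc 0.09 on the log2 scale.

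**Figure D3:**
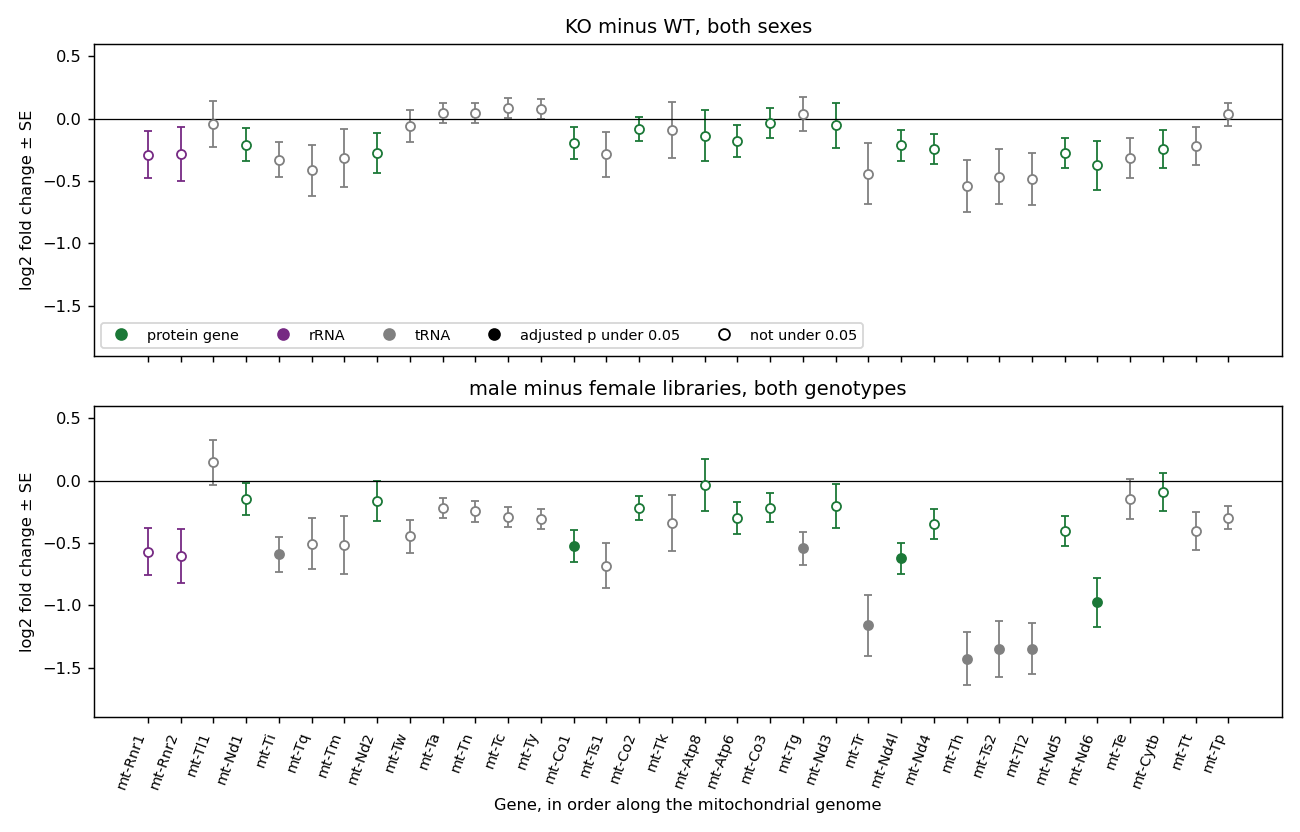
Log2 fold change with its SE from edgeR for the 34 tested members in genome order, KO minus WT over both sexes above and male minus female libraries over both genotypes below; filled points have an adjusted p under 0.05. No point is filled in the upper panel and 9 are filled in the lower panel, the lowest being mt-Th at -1.43.

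Within males, 0 of 34 members were called by edgeR, although 459 of 22960 entries (2%) were. Of the 34, 26 lay below 0 (52% of entries); all 13 protein genes were among them (median log2 fold change -0.27), while both rRNAs lay above 0, at 0.05 and 0.25. The protein gene furthest from 0 was mt-Cytb, with 411, 389 and 459 CPM in KO males, against 765, 548 and 512 CPM in WT males. The 2 groups of males did not overlap for this gene, as was true of 13.4% of entries with KO males lower. Its fold change was -0.54 on the log2 scale (SE 0.16; unadjusted p = 0.00577, adjusted p = 0.0843 by edgeR). It passed without either WT female library, with an adjusted p of 0.0484 or 0.0463, and in DESeq2, with 0.0172, where 4.19% of entries were called lower in KO. With 1 library left out in turn the change ranged over -0.65 to -0.34, being -0.34 without WT male 1, and edgeR's adjusted p went up to 0.275. The share of all entries called with a library left out is not given for males. The other member with an unadjusted p under 0.05 by edgeR was mt-Nd4. It had 307, 266 and 340 CPM in KO males, against 472, 376 and 334 CPM in WT males. Its fold change was -0.37 on the log2 scale (SE 0.15; unadjusted p = 0.0335, adjusted p = 0.184 by edgeR). These 2 compare with 22.2% of entries at an unadjusted p under 0.05, 9.84% being lower in KO. limma-voom called 4 of 34 members in males, mt-Nd1, mt-Nd4, mt-Nd5 and mt-Cytb, all lower in KO, where it called 20% of entries, 8.59% being lower in KO.

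Within females, 0 of 34 members were called by edgeR, as was true of all but 1 of 22960 entries (0.00436%), and 5 members had an unadjusted p under 0.05, all lower in KO, against 6.66% of entries and 4.7% with KO lower. Of the 34, 24 lay below 0 (48.5% of entries). Both rRNAs were among these 5, with mt-Th, mt-Ts2 and mt-Tl2. mt-Rnr2 measured 51, 50.3 and 53.9 CPM in KO females, against 76.4 and 119 CPM in WT females. The KO values were nearly equal and the WT values far apart. The fold change was -0.92 on the log2 scale (SE 0.20; unadjusted p = 0.000804, adjusted p = 0.692 by edgeR), and for mt-Rnr1 it was -0.70 (SE 0.24; adjusted p = 0.692). Without WT female 2 they came to -0.57 for mt-Rnr2 and -0.26 for mt-Rnr1, with an adjusted p of 1 by edgeR for both. Only 2 WT female libraries exist, and the count of members called went to 8 without WT female 1 (mt-Rnr1, mt-Rnr2, mt-Co1, mt-Ts1, mt-Th, mt-Ts2, mt-Tl2 and mt-Nd6, all lower in KO), where the WT group is 1 library assumed to vary like the others and 6.4% of entries were called lower in KO.

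Whether the genotype difference itself differed between the sexes was tested with an interaction term. edgeR called 0 of 34 members and 0 of 22960 entries (0%), with 4 members at an unadjusted p under 0.05 against 13.1% of entries. Of these 4, 2 were above 0 (7.73% of entries) and 2 below 0 (5.41% of entries). Below 0 in all were 18 of 34 (51.3% of entries). For mt-Rnr2 the male difference exceeded the female one by 1.17 on the log2 scale (SE 0.27; unadjusted p = 0.00127, adjusted p = 0.294 by edgeR). DESeq2 called this gene alone among the members (1.16, adjusted p = 0.0236), with 0.63% of entries called above 0. In WT males mt-Rnr2 measured 42.1, 34.7 and 47.1 CPM, so the 2 WT female libraries stood above all the other libraries.

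The comparison of male with female libraries gave the clearest differences. Of 34 members, 9 were called by edgeR with genotype as a covariate, all 9 lower in males, where 4.29% of all 22298 entries were called and 2.46% were called lower in males. They were 6 tRNAs and 3 protein genes (mt-Nd6, mt-Nd4l and mt-Co1). Of all 34, 33 lay below 0 (50.5% of entries), with a median log2 fold change of -0.377 (-0.00348 for all entries). At an unadjusted p under 0.05 there were 25, all lower in males, against 27% of entries in either direction and 14.4% lower in males.

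The 3 neighbouring tRNAs between mt-Nd4 and mt-Nd5 had the lowest fold changes. mt-Th measured 0.485, 0.393 and 0.528 CPM in KO males and 0.582, 0.595 and 0.66 CPM in WT males, against 1.12, 1.13 and 1.2 CPM in KO females and 1.11 and 2.56 CPM in WT females. Every male library lay below every female library. Its log2 fold change was -1.43 (SE 0.21; adjusted p = 0.0105 by edgeR). These levels rest on few reads, 18 to 101 counts per library.

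mt-Ts2 showed the same order, with 0.485, 0.393 and 0.549 CPM in KO males and 0.533, 0.574 and 0.502 CPM in WT males, against 0.961, 0.939 and 1.16 CPM in KO females and 1.05 and 2.34 CPM in WT females (log2 fold change -1.35, SE 0.22; adjusted p = 0.0146 by edgeR). For mt-Tl2 the levels were 0.485, 0.371 and 0.528 CPM in KO males and 0.509, 0.595 and 0.502 CPM in WT males, against 0.939, 0.897 and 1.16 CPM in KO females and 1.14 and 2.18 CPM in WT females (-1.35, SE 0.21; adjusted p = 0.0118 by edgeR). mt-Th and mt-Tl2 stayed called whichever of the 11 libraries was left out, and mt-Ts2 in 10 of 11 cases, with an adjusted p of 0.0527 without KO male 2. The other tRNAs called were mt-Tr (-1.16, adjusted p = 0.0355), mt-Ti (-0.59, 0.0457) and mt-Tg (-0.54, 0.0477), all by edgeR, and they stayed called in 3, 2 and 2 of the 11 cases.

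Of the protein genes, mt-Nd6, the only one made from the light strand, had the lowest fold change. It measured 66.4, 54.4 and 78.9 CPM in KO males and 69.3, 84.8 and 74.5 CPM in WT males, against 102, 102 and 143 CPM in KO females and 109 and 241 CPM in WT females. Male and female libraries did not overlap, and the log2 fold change was -0.98 (SE 0.19; adjusted p = 0.0315 by edgeR), called in 6 of the 11 cases. mt-Co1 measured 5088, 4655 and 4498 CPM in KO males and 4999, 5005 and 4849 CPM in WT males, against 6159, 5776 and 6712 CPM in KO females and 6222 and 9822 CPM in WT females. All male libraries were again lower, at -0.53 on the log2 scale (SE 0.13; adjusted p = 0.0469 by edgeR), which stayed called in 1 of the 11 cases. mt-Nd4l, a small membrane subunit of complex I, gave -0.62 (SE 0.12; adjusted p = 0.0312 by edgeR) and was called in 4 of the 11 cases, with male and female libraries overlapping. With the counts of its nuclear copy added it was no longer called (-0.34, adjusted p = 0.179 by edgeR). The other 8 members stayed called in that fit. Among them only mt-Co1 has a listed copy, so nothing was added to the counts of the rest.

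In all, 8 of 34 members (6 tRNAs and 2 protein genes) had male and female libraries that did not overlap, with males lower in each. The background was 2.4% of entries with males lower and 2.67% with males higher. Genes near 0 included mt-Tl1 (0.15), mt-Atp8 (-0.04), mt-Cytb (-0.09) and mt-Nd1 (-0.15). In KO libraries alone, 33 of 34 members were again below 0, but edgeR called 0 of them (21 had an unadjusted p under 0.05), with mt-Th at -1.28 (adjusted p = 0.0816). The shares of all entries in this contrast are not given here, so these counts have no background to be read against. The share of counts on repeats was 5.31% to 8.1% in males and 6.41% to 10.2% in females, and its part in these differences was not tested.

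**Figure D4:**
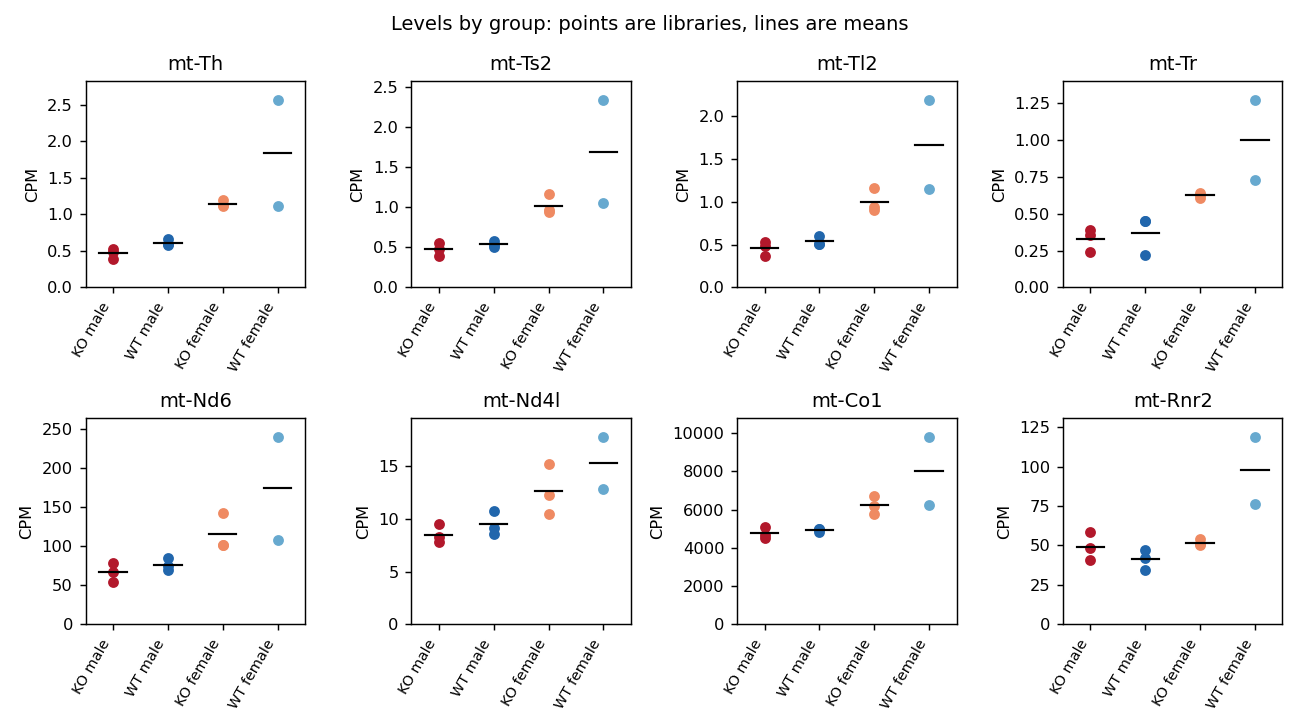
CPM of 7 members named in the comparison of male and female libraries and of mt-Rnr2, by group on linear axes; points are libraries and lines are group means. For mt-Th, mt-Ts2, mt-Tl2, mt-Tr, mt-Nd6 and mt-Co1 all male points lie below all female points, and WT female 2 has the highest value in each of the 8 panels.

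Ratios of 2 members within a library do not depend on the scaling between libraries, and 3 were taken. The ratio of mt-Nd5 to mt-Nd1 sets a gene far from the heavy-strand promoter against one near it. It was 1.06, 1.06 and 1.08 in KO males and 0.947, 1.12 and 1.14 in WT males, and 1.18, 1.13 and 1.3 in KO females and 1.21 and 1.48 in WT females. KO and WT differed by -0.07 on the log2 scale, with p = 0.39 in an exact two-sided permutation test within sex (200 arrangements, smallest possible p 0.005).

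The ratio of mt-Nd6 to mt-Nd5 sets the light-strand mRNA against its heavy-strand neighbour. It was 0.15, 0.14 and 0.16 in KO males and 0.109, 0.153 and 0.155 in WT males, and 0.185, 0.172 and 0.208 in KO females and 0.187 and 0.296 in WT females. KO and WT differed by -0.07 on the log2 scale (exact permutation p = 0.645), and for the 2 rRNAs, mt-Rnr2 to mt-Rnr1, by 0.02 (exact permutation p = 0.875). The Benjamini-Hochberg adjusted p was 0.875 for all 3 of these exact tests.

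The same ratios were compared between males and females, a test chosen after the values had been seen. mt-Nd6 to mt-Nd5 averaged 0.145 ± 0.0188 in males and 0.21 ± 0.0501 in females (SD, n = 6 and 5), a difference of -0.53 on the log2 scale. mt-Nd5 to mt-Nd1 averaged 1.07 ± 0.0688 in males and 1.26 ± 0.138 in females, a difference of -0.24. Both reached p = 0.005, the smallest that the exact permutation within genotype can give (adjusted p = 0.0075 over the 3 ratios), and mt-Rnr2 to mt-Rnr1 did not (-0.05; exact permutation p = 0.68). For mt-Nd6 to mt-Nd5 every male library was below every female library, while for mt-Nd5 to mt-Nd1 WT male 3 at 1.14 lay above KO female 2 at 1.13. The strand setting of the counting is not given, and whether counts of mt-Nd6 include reads of the opposite strand was not tested.

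Where the copy matches nearly the whole gene, many of a pair's counts were assigned to the nuclear copy. Which reads these were was not examined. Of the counts of mt-Atp6 and its copy, 57.5% to 66.7% were assigned to the copy in KO libraries and 57.3% to 64.5% in WT libraries. The range was 53.1% to 63.3% in KO and 50.8% to 59.6% in WT for mt-Co2, 57.1% to 66.4% in KO and 52.4% to 63.8% in WT for mt-Co3, and 52.6% to 62.1% in KO and 50.0% to 66.2% in WT for mt-Nd4l. Where the copy matches only part of the gene its portion was small, 0.679% to 0.962% in KO and 0.657% to 0.877% in WT for mt-Co1, and 2.51% to 3.3% in KO and 2.31% to 3.42% in WT for mt-Nd4. Yet 60.8% of the 100-base windows in mt-Nd4 were shared, and why its portion was so small was not tested. For mt-Nd3, whose copy differs by a single base, the portion was 32.4% to 43.6% in KO and 20.5% to 47.4% in WT, with the lowest value in WT female 2.

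As entries of their own, none of the 7 copies was called between KO and WT by edgeR (adjusted p of 0.399 or more), with 2 above and 5 below 0. Adding each copy's counts to its mitochondrial gene left 0 members called between KO and WT over both sexes. All copies together held 0.131% ± 0.016 of counts in KO and 0.129% ± 0.016 in WT libraries (SD, n = 6 and 5).

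**Figure D5:**
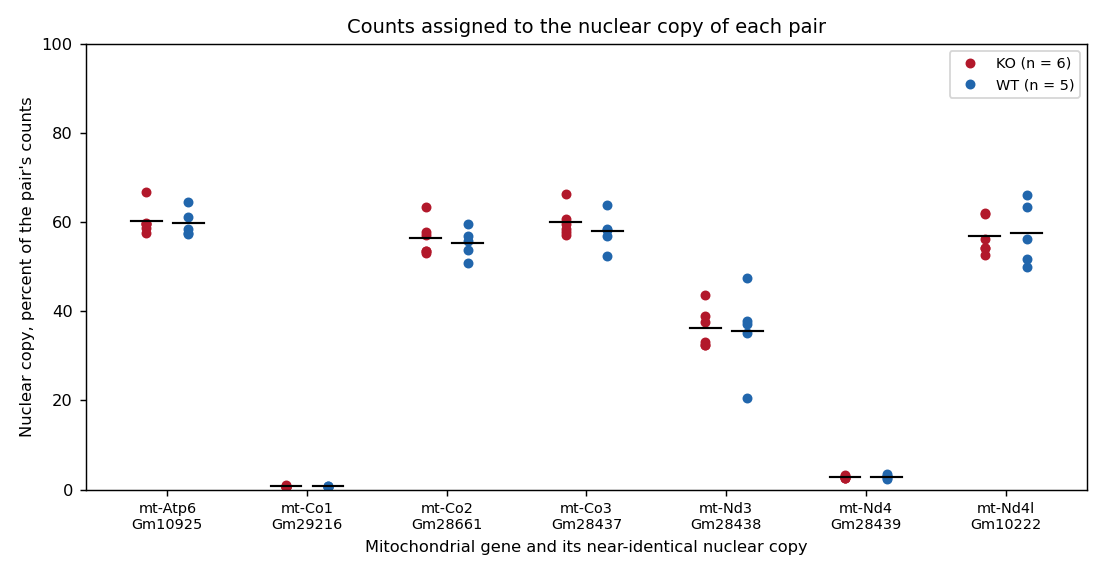
Counts assigned to the nuclear copy, in percent of the counts of each pair of mitochondrial gene and copy; points are libraries, KO left and WT right, lines are means. KO and WT points overlap in all 7 pairs, and the 4 pairs that match over nearly the whole gene at full identity lie between 50.0% and 66.7%.

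Nuclear genes that make, process and translate mitochondrial RNA gave no call between KO and WT. Polrmt, the mitochondrial RNA polymerase, averaged 19.1 ± 1.25 CPM in KO and 19.3 ± 1.68 CPM in WT. Tfam, which packages mitochondrial DNA and starts transcription, averaged 16.3 ± 0.842 CPM in KO and 16.7 ± 2.69 CPM in WT, and the initiation factor Tfb2m 13.5 ± 0.424 CPM in KO and 13.8 ± 1.93 CPM in WT (SD, n = 6 and 5). Their log2 fold changes were -0.01, -0.02 and -0.02, each with an SE of 0.10 or less and an adjusted p of 0.914 or more by edgeR. Lrpprc and Slirp, which together stabilise mitochondrial mRNAs, gave 0.08 (SE 0.14) and 0.02 (SE 0.06).

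Of the transcription list, 2 of 9 genes lay above 0, the higher being Mterf4, needed for assembly of the mitochondrial ribosome, at 0.54 (SE 0.23; adjusted p = 0.267 by edgeR). For genes of mitochondrial DNA replication and maintenance 7 of 16 lay above 0, led by Mpv17 at 0.20 (adjusted p = 0.263 by edgeR). For RNA processing, modification and stability 18 of 38 lay above 0. There Rpusd3, a pseudouridine synthase family member of mitochondria, measured 1.61 ± 0.208 CPM in KO and 2.2 ± 0.456 CPM in WT (log2 fold change -0.46, SE 0.15; unadjusted p = 0.0122, adjusted p = 0.197 by edgeR), and Nsun3, which methylates the methionine tRNA, gave 0.25 (adjusted p = 0.279).

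Of 79 mitochondrial ribosomal proteins 38 lay above 0, with 4 at an unadjusted p under 0.05 higher in KO and 3 lower. Mrps21 of the small subunit gave 0.17 and Mrpl15 of the large subunit -0.18 (adjusted p = 0.184 and 0.24 by edgeR). Translation factors had 8 of 13 above 0, with Guf1 at -0.16. Biogenesis regulators had 8 of 12 above 0, with Pprc1 at -0.19 (adjusted p = 0.395 by edgeR). None of these lists had a median further from 0 than 0.05.

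Nuclear partners of the 13 mitochondrial proteins lay mostly above 0. Above 0 were 26 of 36 subunits of complex I, 5 of 9 of complex III, 8 of 11 of complex IV and 11 of 14 of ATP synthase, with medians of 0.05, 0.01, 0.05 and 0.05 on the log2 scale. Ndufa1 of complex I, with 19.1 ± 1.17 CPM in KO and 16.4 ± 1.29 CPM in WT (SD, n = 6 and 5), had the lowest p of these. Its log2 fold change was 0.23 (SE 0.07; unadjusted p = 0.00978, adjusted p = 0.188 by edgeR). None of the subunits was called by edgeR. Among genes of mitochondrial DNA release and of nucleases, 6 of 10 lay above 0. The lysosomal DNase Dnase2a gave 0.40 (SE 0.13) and the cytosolic DNase Trex1 0.32 (SE 0.12), with adjusted p-values of 0.189 and 0.232 by edgeR.

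Between male and female libraries the nuclear lists lay mostly above 0, opposite in sign to the members. Above 0 were 70 of 79 mitochondrial ribosomal proteins, 31 of 36 subunits of complex I, 9 of 11 of complex IV, 11 of 14 of ATP synthase and 29 of 38 RNA processing genes. Of all entries, 50.5% were below 0 in this comparison. Called by edgeR as higher in males were 8 genes, named here after their values were seen: Mrpl28, the release factor Mtrf1, Ndufb7 and Ndufa4, Cox7b, Atp5k, and Bax and Bak1, which permeabilise the outer mitochondrial membrane. These were 1 of 79 mitochondrial ribosomal proteins, 1 of 13 translation factors, 1 of 36 subunits of complex I and 2 of 11 of complex IV. The rest were 1 of 14 subunits of ATP synthase and 2 of 10 genes of mitochondrial DNA release and nucleases. The replication, transcription, RNA processing, biogenesis and complex III lists had 0 called. Background was 1.83% of entries called higher. Atp5k measured 16.7 ± 1.87 CPM in males and 11.8 ± 1.16 CPM in females (SD, n = 6 and 5; log2 fold change 0.52, SE 0.09, adjusted p = 0.0142 by edgeR), and Bak1 80.6 ± 7.63 CPM in males and 56.3 ± 7.12 CPM in females (0.53, SE 0.10, adjusted p = 0.0224). Male and female libraries did not overlap for either gene.

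Markers of other cells differed beside these comparisons. Between KO and WT, all 9 tested leukocyte and macrophage markers lay above 0, with a median of 0.53 and 8 at an unadjusted p under 0.05 but 0 called by edgeR. Of all entries, 17.2% were at an unadjusted p under 0.05 by edgeR in either direction. Ptprc, the CD45 antigen of leukocytes, averaged 171 ± 39 CPM in KO and 118 ± 19.1 CPM in WT, and the macrophage mannose receptor Mrc1 1519 ± 474 CPM in KO and 843 ± 396 CPM in WT. All 7 tested epithelial markers lay below 0 in KO (median -0.90). Of them 3 were at an unadjusted p under 0.05 by edgeR, against 7.09% of all entries with KO lower. Of the endothelial markers 5 of 8 lay below 0 (median -0.84), but the 2 at an unadjusted p under 0.05 by edgeR were higher in KO. The endothelial sum averaged 84.9 CPM in KO and 65.6 CPM in WT. All 6 mesothelial markers lay below 0 (median -0.51). EdgeR called 0 markers in each of these lists. Fibroblast markers were split, with 5 of 10 below 0 and a median of -0.01.

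Within males edgeR called 3 of 9 leukocyte and macrophage markers higher in KO (median 0.76), 1 of 7 epithelial markers lower (median -1.39) and 1 of 8 endothelial markers higher (median -2.0), and within females 0 of these. Over all entries edgeR called 2% in males and 0.00436% in females, in either direction. Between the sexes, the summed leukocyte and macrophage markers ranged over 4594 to 10997 CPM in males and 5164 to 7079 CPM in females. The 10 fibroblast markers summed to 37414 to 50742 CPM in males (mean 42019) and 45633 to 55184 CPM in females (mean 50149). Of them 7 lay below 0 between males and females, with 3 lower and 1 higher at an unadjusted p under 0.05 and 0 called by edgeR. Of the 7 epithelial markers 4 lay above 0 and 3 below 0 (median 0.0066), and 1 was called by edgeR, lower in males. The part of these markers in the levels of mitochondrial transcripts was not tested.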

How the data were processed

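Per the labels, total RNA was ribodepleted and sequenced; Trim Galore, STAR and build GRCm39 are named in the submitters' processing notes, while neither the labels nor the files name the counting tool, its strand setting or how it treated reads with several matches. The deposited files hold raw counts per gene and per repeat subfamily for each of 11 libraries, 27261958 to 48039328 counts each. Gene symbols, from a table of gene IDs, matched 52073 of 56980 IDs. Gene lengths, gene order and transcript sequences come from GENCODE vM21 (GRCm38), so no coordinates are given.

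Counts were filtered with filterByExpr (minimum count 10), scaled by TMM and tested with edgeR 4.0.16 (quasi-likelihood; R 4.3.3) on all entries, with Benjamini-Hochberg adjustment over all entries and a threshold of 0.05. KO against WT was fitted with sex, male against female with genotype (22298 entries), and contrasts within a sex with a mean per genotype and sex (22960). DESeq2 1.42.0, limma 3.58.1 (voom with sample weights), other scalings and filters, left-out libraries and a replicate block were alternatives. Exact permutations were made within sex or genotype. Copies were found with BLAST 2.17.0. The fitting code was tested on simulated data. Replicates of a group differed by more than sampling noise (chi-square per degree of freedom 12 to 144).

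The members, gene lists and tests were chosen with earlier results of these data known. All protein genes and rRNAs are named, the 3 tRNAs of highest mean CPM and any called tRNA, and of each of 18 lists the 2 genes of smallest p between KO and WT plus Polrmt, Tfam, Tfb2m, Lrpprc and Slirp; genes named beyond this rule were chosen after their values were seen, the copies by their match. Of the lists, Prorp and Atp5pb had no match.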

Additional observations from a re-analysis of the deposited data

Results flagged for a closer look

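In 56 groups of 5 or 6 libraries (KO or WT, for single members, shares and ratios), 4 held a library whose gap to its nearest neighbour was more of the group's range than Dixon's 95% critical value allows (0.71 for 5 libraries, 0.625 for 6). Chance flags about 1 in 20 groups. Of these 4, 3 were WT female 2. In that library mt-Co1 measured 9822 CPM, with the next WT library at 6222 CPM. mt-Nd6, the light-strand mRNA, measured 240.7 CPM there and 108.6 CPM in the next library. The histidine tRNA mt-Th measured 2.56 CPM there and 1.11 CPM in the next. WT female 2 also had the highest share of counts on repeats, 10.2%, and the part of this in its mitochondrial levels was not tested. The 4th was a low value: mt-Co2 measured 211.3 CPM in WT male 3, with the next WT library at 261.0 CPM.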

How the results depend on the processing

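Counts of members called between KO and WT over both sexes (0 in edgeR) came to 2 in limma-voom and 0 to 1 with a library left out (1, mt-Th, without WT female 1). Within males (0) they came to 1 in DESeq2, 4 in limma-voom and 0 to 1 with a library left out. Within females (0) they ranged over 0 to 8 with a library left out, and for the interaction (0) DESeq2 gave 1 and left-out libraries 0 to 2, the highest in both without WT female 1. Between males and females (9) they came to 17 in DESeq2, 25 in limma-voom, 0 in KO libraries alone and 2 to 14 with a library left out, 2 without KO male 2 and 14 without WT female 1. Over all entries the calls between KO and WT were 1 in edgeR, 525 in DESeq2 and 3260 in limma-voom, between males and females 956, 2845 and 5971. The cause of these differences was not tested. With a library left out, the share of all entries called is given here only within females without WT female 1. The other counts of members called in such fits have no background to be read against.

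Some signs turned: in limma-voom mt-Rnr2 between KO and WT (0.15), with copies added mt-Co3 (0.042), and with library totals in place of TMM mt-Atp8 between males and females (0.0062). With a library left out, the log2 fold change between KO and WT ranged over -0.15 to 0.027 for mt-Co3 and -0.24 to 0.10 for mt-Nd3, and mt-Atp8 between males and females over -0.16 to 0.11. The log2 ratio of mt-Rnr2 to mt-Rnr1, KO minus WT, was -0.22 in females alone (exact permutation p = 0.4) and -0.031 to 0.089 with a library left out, and male minus female -0.13 to 0.020. That of mt-Nd6 to mt-Nd5, KO minus WT, was 0.13 in males alone (exact permutation p = 0.7) and -0.18 to 0.089 with a library left out. The share of counts on members stayed lower in KO, by -0.161 to -0.0241 percentage points.

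Labels number the replicates within each sex. Deviations from the group mean correlated at -0.185 to 0.111 between same-numbered KO and WT libraries. Between other-numbered ones they correlated at -0.324 to 0.280. In groups of 2 or 3 libraries such deviations are tied to each other, so these values cannot decide whether the numbers pair libraries. With the replicate block edgeR called 0 members over both sexes, in males, in females and for the interaction, with 28 of 34 below 0 over both sexes. The share differed by -0.145 percentage points in that pairing, and the log2 ratios by 0.08 for mt-Rnr2 to mt-Rnr1, -0.09 for mt-Nd5 to mt-Nd1 and -0.08 for mt-Nd6 to mt-Nd5. Depth limits the tRNAs most: mt-Tf, mt-Tv and mt-Td had at most 11 counts per library.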

Other observations

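The tRNAs differed by the strand that encodes them, a grouping chosen after the values were seen. By the GENCODE vM21 annotation, 14 tRNA genes lie on heavy-strand transcripts and 8 on light-strand transcripts. The 5 tRNAs of highest mean level, mt-Tp, mt-Tn, mt-Tc, mt-Ty and mt-Ta (11.8 to 24.1 CPM), were all of the light-strand set, whose median over genes was 12.7 CPM, against 0.854 CPM for the heavy-strand set. All 5 lay just above 0 between KO and WT, at 0.04 to 0.09 on the log2 scale. In the heavy-strand set 10 of 11 tested tRNAs lay below 0, with a median of -0.31, against 3 of 8 in the light-strand set, with a median of 0.04. All 6 tRNAs called lower in males by edgeR were of the heavy-strand set, whose median between males and females was -0.54 (-1.43 to 0.15). The 8 light-strand tRNAs were all lower in males too, with a median of -0.30 (-0.68 to -0.15). DESeq2 called light-strand tRNAs lower in males as well, among them mt-Tn, mt-Tc, mt-Ty and mt-Tp. The difference between the sets was not tested, and tRNAs cut from 1 precursor are not independent. As the strand setting of the counting is not given, tRNA counts may include reads of the opposite strand, which was not tested.

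The spread within groups differed between members. The SD of log2 CPM within groups ranged over 0.153 (mt-Co2) to 0.427 (mt-Atp8) for the 13 protein genes. Taken relative to the mean of the 13 in each library, it fell to 0.0547 for mt-Nd4, against 0.202 before, and to 0.0759 for mt-Nd5, against 0.212, but came to 0.253 for mt-Co3, against 0.204. It hardly differed for mt-Co1 (0.185 relative to the mean, against 0.192), mt-Co2 (0.145, against 0.153), mt-Nd3 (0.278, against 0.280) and mt-Cytb (0.190, against 0.200).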
